A study of Mus musculus with 6 samples.

Results

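Plasma membrane and vesicular carriers for amino acids, sugars, monocarboxylates and neurotransmitters were examined in Setd2-KO and wild-type neural progenitor cells (NPCs). The genes were taken by name, as every tested gene with a symbol of the families Slc1, Slc2, Slc3, Slc5, Slc6, Slc7, Slc16, Slc17, Slc18, Slc32, Slc36, Slc38 and Slc43. This gave 81 of the 15095 genes in the authors' deposited edgeR table. Polyadenylated RNA was sequenced from 3 Setd2-KO and 3 wild-type libraries of an isogenic mouse embryonic stem cell background (HA36CB1), in which Setd2 had been ablated with CRISPR in the knock-out. Both genotypes were grown as cellular aggregates for 4 days without retinoic acid and for 4 days with 5 uM of it, and were collected at day 8. The titles call the cells NPCs, while the cell type label still reads embryonic stem cells. Neither the labels nor the methods name the knock-out clone behind these libraries or say that the 3 libraries of a genotype were separate differentiations, so the p-values measure a spread between libraries that may be technical. SETD2 is the methyltransferase that places H3K36me3 over the bodies of transcribed genes, and the comparison asks which transporter genes differed in its absence.

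The solute carriers considered here fill 3 broad tasks. Sodium-coupled carriers of the Slc1 and Slc6 families clear glutamate, GABA, glycine and monoamines from the extracellular space, and proton-driven vesicular carriers of the Slc17, Slc18 and Slc32 families load transmitters for release. Slc2 carriers let glucose into the cell and Slc16 carriers move lactate and other monocarboxylates with protons. Heterodimers of an Slc3 heavy chain and an Slc7 light chain, together with the Slc36 and Slc38 carriers, feed cells and lysosomes with amino acids. In the developing neural tube, radial progenitors take up glutamate through Slc1a3, whereas vesicular carriers mark neurons of a given transmitter type.

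For each gene the deposited table gives a false discovery rate (FDR) and p-value beside the log2 fold change and the average log2 CPM of all 6 libraries, and it gives no value per library. The depth of the libraries is therefore unknown, and neither an SD nor a standard error can be given for a gene. The authors' test (edgeR glmTreat) asked whether the absolute log2 fold change exceeded 1. Missing its threshold does not show that a gene was unchanged. Fold changes are Setd2-KO over wild type. Where the average was at least 2, the level implied for each genotype was computed from the average and the fold change, and it carries no replicate error. Setd2 RNA itself had a log2 fold change of -0.44 (FDR = 1), which does not check the genotype of a CRISPR knock-out. In bulk RNA, fewer cells of a type and less RNA per cell cannot be told apart.

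Among the 81 transporter genes, 4 rose and 0 fell in Setd2-KO NPCs at an FDR under 0.05 (edgeR glmTreat, Benjamini-Hochberg over all genes). Over all tested genes, 1.54% were called higher and 2.11% lower. The 4 were Slc1a3, Slc38a3, Slc16a3 and Slc5a2, which carry glutamate, glutamine, lactate and glucose. At an unadjusted p under 0.05, 5 members were higher and 4 were lower, beside 2.54% and 3.43% of all genes. The median log2 fold change of the members was -0.08 (interquartile range -0.37 to 0.52), against 0.01 (-0.30 to 0.29) over all genes. Of the members, 37 had a value above 0 and 44 below it, 12 reached an absolute value of 1 and 46 stayed under 0.5. Among the other 210 Slc genes of the table, 0 were called higher and 7 lower, with a median of -0.09.

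**Figure D1:**
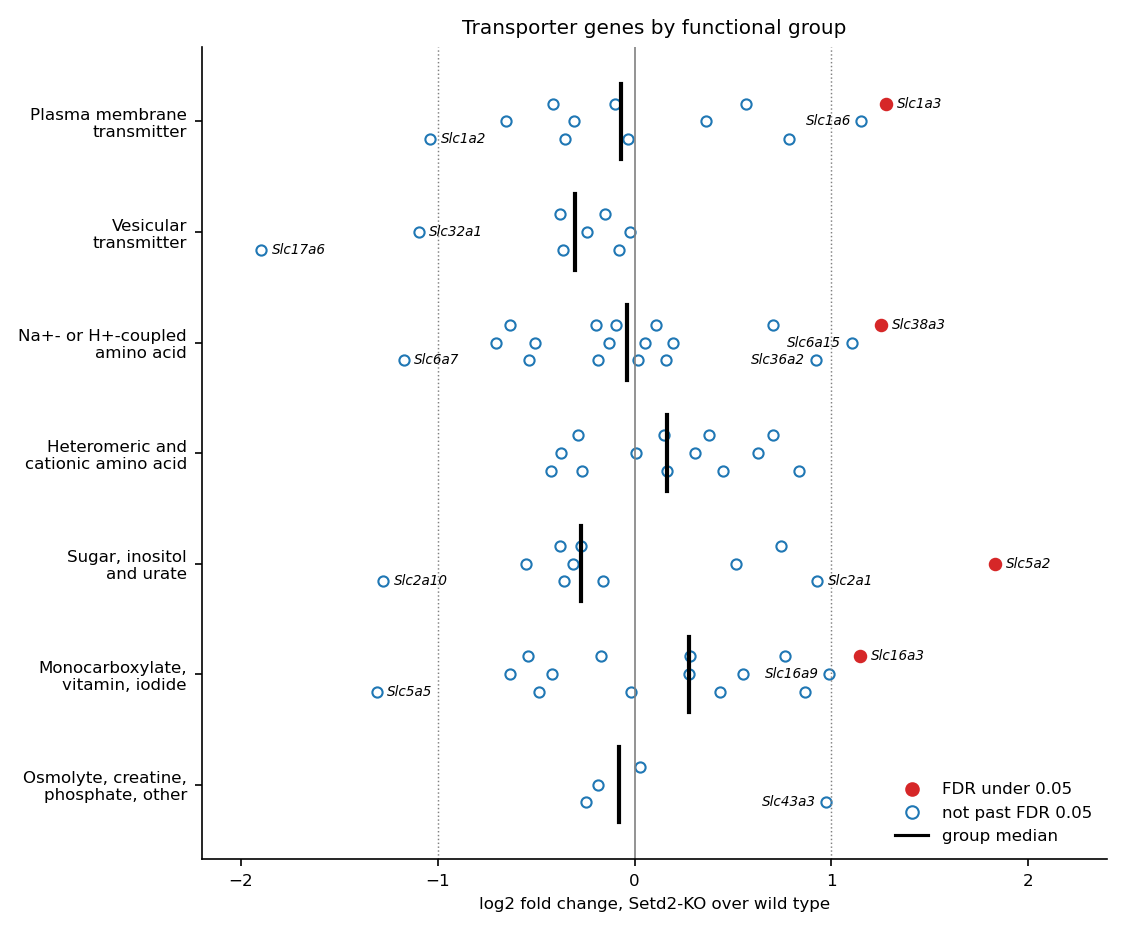
Horizontal position gives the log2 fold change of Setd2-KO over wild type for the 81 transporter genes in 7 functional groups, 1 circle per gene, with a black bar at each group's median and dotted lines at the absolute value of 1 that the authors' test used. The 4 filled circles, called at an FDR under 0.05, lie between 1.15 and 1.83, and the 8 vesicular carriers lie between -1.90 and -0.02.

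Among the plasma membrane carriers that remove transmitters, 1 of 12 was called. Slc1a3 encodes GLAST, the glutamate transporter of radial glia and astrocytes, and lies on chromosome 15 from 8663604 to 8741595 on the minus strand (GRCm39). It rose 2.43-fold in Setd2-KO NPCs (log2 fold change 1.28, edgeR FDR = 7.3e-06). Its average was 7.08 log2 CPM, from which 192 CPM followed for Setd2-KO NPCs, against 79.2 CPM for wild-type NPCs. Slc1a3 was the transporter with the lowest p-value of the 81, and it was the only member past the FDR threshold after Bonferroni adjustment over all genes.

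The 4 high-affinity glutamate carriers in this group did not share a direction. Slc1a2, which encodes GLT-1 and takes over glutamate clearance in mature astrocytes, had a log2 fold change of -1.04 (edgeR FDR = 1). Its implied level was 44.1 CPM in Setd2-KO NPCs and 90.6 CPM in wild-type NPCs. Slc1a6, the EAAT4 carrier known from Purkinje cells of the cerebellum, had 1.15 at the low average of 0.54 log2 CPM (edgeR FDR = 0.97). The neuronal carrier Slc1a1 had -0.41 and lies on chromosome 19, where the median over 509 genes was -0.37. The 2 carriers usually assigned to glia therefore stood on opposite sides, Slc1a3 higher and Slc1a2 without a call.

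Carriers of inhibitory transmitters gave no call. The glycine carrier of inhibitory neurons, Slc6a5 (GlyT2), had a log2 fold change of -0.65 with an implied level of 23.5 CPM in Setd2-KO NPCs and 37.0 CPM in wild-type NPCs. Slc6a9 (GlyT1), the other glycine carrier, had -0.31. The GABA carrier Slc6a11 (GAT3) had 0.36, and the GABA carrier Slc6a13 (GAT2) had 0.78 at 0.76 log2 CPM. The serotonin carrier Slc6a4 had 0.57, the noradrenaline carrier Slc6a2 had -0.04 and the choline carrier Slc5a7 had -0.10, all with an average under 1 log2 CPM. The group's median was -0.07, and it moved to -0.35 when only its 5 members with an average of at least 2 were kept.

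The 8 vesicular carriers all had a log2 fold change below 0 (median -0.30), although 0 of them passed the FDR threshold by glmTreat and 2 had an unadjusted p under 0.05. Over all genes, 49.2% had a value below 0. The groups were chosen with earlier results of these data known. This group includes Slc6a17 and leaves out Slc17a5, a sialic acid carrier of the Slc17 family, which had 0.03. Slc32a1 encodes VIAAT, which loads GABA and glycine into vesicles, and had a log2 fold change of -1.10 (edgeR FDR = 0.35). Its implied level was 13.7 CPM in Setd2-KO NPCs, against 29.2 CPM in wild-type NPCs. The non-coding gene Gm14204, which overlaps it on the opposite strand, had -1.07. Slc17a6 encodes VGLUT2, the vesicular glutamate carrier of early excitatory neurons, and had the lowest value of all members with -1.90 (edgeR FDR = 0.071). It was the member just outside the threshold, and its average of -1.63 log2 CPM means that the size of its fold change depends on the prior count of the fit. The remaining vesicular carriers were closer to 0. The other vesicular glutamate carriers had -0.37 for Slc17a7 (VGLUT1) and -0.02 for Slc17a8 (VGLUT3), and the monoamine carriers had -0.38 for Slc18a1 (VMAT1) and -0.15 for Slc18a2 (VMAT2). Slc17a9, the vesicular nucleotide carrier, had -0.08 and Slc6a17, a vesicular carrier of neutral amino acids, had -0.24. Slc18a2 lies on chromosome 19, and Slc6a17, like Slc16a1 and Slc16a4, lies in a distal stretch of chromosome 3 where the median over 341 genes was -0.38. The part of these regional differences in the members' values was not tested.

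Markers of neurons were examined beside these carriers. All 10 neuronal markers examined had a log2 fold change below 0 (median -0.88), and 2 of them fell, Elavl3 by 1.28 and Nefm by 1.21 on the log2 scale (edgeR FDR = 5.9e-06 for Elavl3 and 0.00015 for Nefm). The implied levels of the 10 summed to 1764 CPM in Setd2-KO NPCs and 3533 CPM in wild-type NPCs. None of the 10 was near 0, as their averages ran from 4.75 to 9.75 log2 CPM. The part of the neuronal share of cells in the values of the vesicular carriers was not tested. The 7 markers of neural progenitors that were measured had a median of -0.03, with 3 values above 0 and 4 below it. Their implied levels summed to 1971 CPM in Setd2-KO NPCs and 1880 CPM in wild-type NPCs. The radial glial lipid-binding gene Fabp7 among them fell by 2.91 on the log2 scale. Pax6 had 0.74, Sox2 0.60 and Nes -0.63, none of them called. Of the 3 astrocyte markers measured, 2 had a log2 fold change above 0 and none was called (median 0.75). Aldoc had 0.95 at an average of 3.40 log2 CPM, with an implied 14.0 CPM in Setd2-KO NPCs and 7.23 CPM in wild-type NPCs. This gene is also counted among the genes of glucose and lactate handling below, so its value is not particular to astrocytes. Aldh1l1 had 0.75 at -0.06 log2 CPM and Gfap had -0.37 at -2.26 log2 CPM. The part of astrocyte-like cells in the value of Slc1a3 was not tested.

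Enzymes that make or break transmitters were mostly not called. Of 13 genes for glutamate, GABA and glycine metabolism, 1 fell and 0 rose (median -0.04). The gene that fell was Gad2, which makes GABA for release, with a log2 fold change of -1.32 (edgeR FDR = 0.0004), whereas Gad1 had -0.37. Glul, the glutamine synthetase that acts after glutamate uptake in glia, had 0.19. Of 11 genes for monoamine and acetylcholine metabolism, 1 rose and 1 fell. Maob, a monoamine oxidase, rose with 2.42 (edgeR FDR = 9.0e-06) and Ache, the acetylcholinesterase, fell by 1.26 on the log2 scale (edgeR FDR = 0.048).

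**Figure D2:**
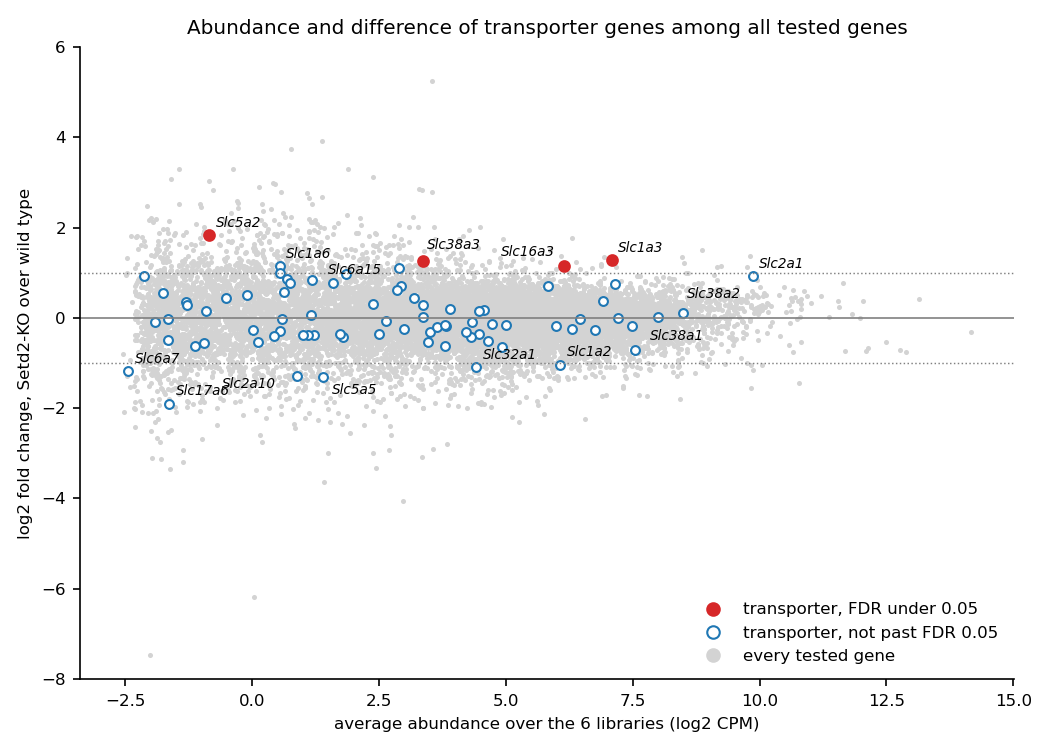
Average abundance over the 6 libraries (log2 CPM, horizontal axis) against the log2 fold change (vertical axis, Setd2-KO over wild type) of the 81 transporter genes, drawn over all 15095 tested genes in grey. Slc1a3 and Slc16a3 combine an average over 6 with a call, Slc5a2 was called at -0.84 log2 CPM, and Slc2a1 lies farthest to the right at 9.86 with a log2 fold change of 0.93.

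Glucose carriers were led by Slc2a1, which encodes GLUT1, the main glucose carrier of embryonic and neural cells. Scaled by transcript length (average log2 CPM minus the log2 of the canonical transcript length in kb), Slc2a1 had the highest level of the 81 members with 7.71, followed by Slc38a2 with 6.26. Its log2 fold change was 0.93 (1.90-fold, edgeR FDR = 1), with an implied 1221 CPM in Setd2-KO NPCs and 642 CPM in wild-type NPCs. The smallest absolute log2 fold change called over all genes was 1.09, so this value lay under the reach of the test. Slc2a3 (GLUT3), the high-affinity carrier of neurons, had 0.74 and an implied 178 CPM in Setd2-KO NPCs, against 106 CPM in wild-type NPCs. The other sugar carriers of the Slc2 family had values below 0 or low averages. The intracellular carrier Slc2a8 had -0.36, the insulin-responsive carrier Slc2a4 (GLUT4) had -0.31, the fructose carrier Slc2a5 had -0.55, Slc2a6 had -0.38 and the inositol carrier Slc2a13 had -0.27, while Slc2a12 had 0.52. Slc2a10 (GLUT10) had -1.28 (edgeR FDR = 0.29) at 0.88 log2 CPM.

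Slc5a2, the sodium-glucose carrier SGLT2 known from the kidney tubule, was the fourth called member. It had a log2 fold change of 1.83 (edgeR FDR = 0.049) and an average of -0.84 log2 CPM, so that its RNA was scarce in both genotypes. It stood just inside the threshold, and its FDR was 0.051 when the genes of chromosome 19 were left out of the adjustment. Slc5a2 lies on chromosome 7 from 127864829 to 127871602 and overlaps Rusf1 on the opposite strand, which had 6.30 log2 CPM and a log2 fold change of 0.13. The library kit was directional and so kept the strand of the RNA, while the setting used for counting is not given in the sources read here. The inositol carrier Slc5a3 had -0.16.

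Lactate and other monocarboxylates are moved by Slc16 carriers, of which 1 of 12 was called. Slc16a3 encodes MCT4, the lactate exporter of glycolytic cells, and lies on chromosome 11 from 120838846 to 120851694. It rose 2.22-fold (log2 fold change 1.15, edgeR FDR = 0.0091), with an implied 97.4 CPM in Setd2-KO NPCs and 44.0 CPM in wild-type NPCs. Under Benjamini-Yekutieli adjustment its adjusted p was 0.093. It overlaps Csnk1d and Ccdc57 on the opposite strand, which had log2 fold changes of 0.06 and -0.12. Slc16a1 (MCT1), which carries lactate in either direction, had -0.02 with an implied 87.5 CPM in Setd2-KO NPCs and 88.6 CPM in wild-type NPCs. Slc16a3 and Slc16a1 thus stood apart in these values, although a difference between genes was not tested. Slc16a1 lies in the distal stretch of chromosome 3 where the median over 341 genes was -0.38.

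The remaining monocarboxylate and related carriers had values on both sides. Slc16a9 (MCT9) had 0.99, Slc16a12 had 0.87 and the aromatic amino acid carrier Slc16a10 had 0.76, each with an average under 2 log2 CPM. Slc16a6 had 0.44. On the negative side, Slc16a11 had -0.63, Slc16a14 -0.54, Slc16a4 -0.48 and Slc16a13 -0.42. Of these, Slc16a11, Slc16a14 and Slc16a4 also had an average under 2 log2 CPM. Slc5a5, the iodide carrier NIS of the thyroid, had -1.31 and missed the threshold (edgeR FDR = 0.078) at 1.40 log2 CPM. The vitamin carrier Slc5a6 had -0.17. The 2 scarce carriers Slc5a8 (SMCT1) and Slc16a7 (MCT2) had 0.55 and 0.28.

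Genes that handle glucose and lactate inside the cell were examined beside these carriers. Of 22 such genes, 5 rose and 0 fell (22.7% called higher, against 1.54% of all genes), with a median log2 fold change of 0.58. The list was chosen with earlier results of these data known. Ldha, which makes lactate from pyruvate, had the largest value with 1.50 (edgeR FDR = 2.9e-08). Pdk3 with 1.38 and Pdk1 with 1.18 encode kinases that shut pyruvate dehydrogenase, and Aldoa with 1.16 and Eno1 with 1.12 are glycolytic enzymes. Hif1a RNA had a log2 fold change of 0.09, which does not give the level or activity of its protein. The part of a hypoxia response in these values was not tested. The 22 genes had an implied sum of 12297 CPM in Setd2-KO NPCs, against 7227 CPM in wild-type NPCs. Bsg, the chaperone that takes MCT1 and MCT4 to the membrane, had 0.11, and Emb, its homologue, had 0.99 without a call.

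**Figure D3:**
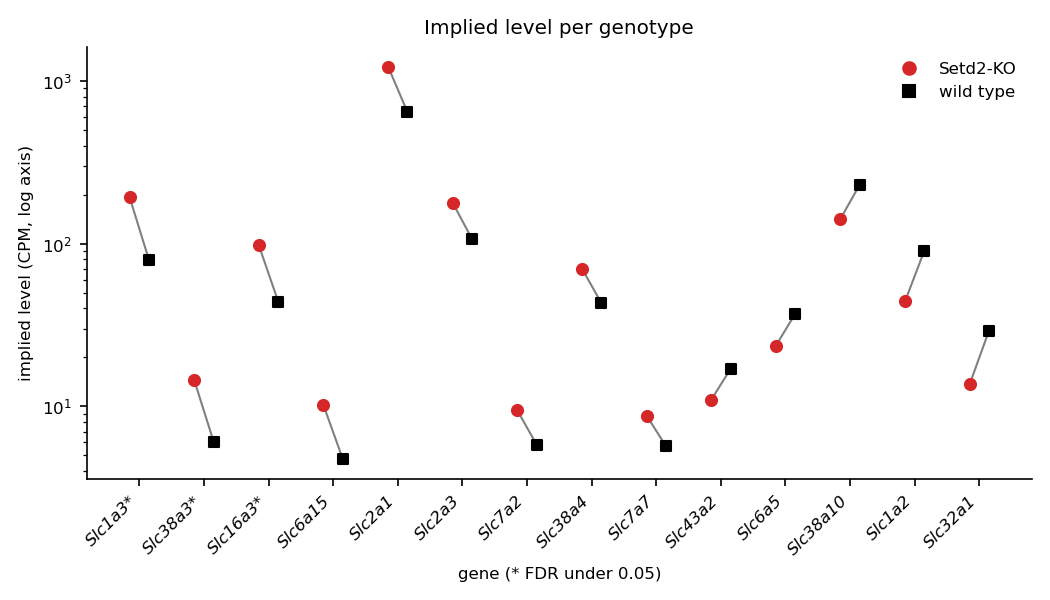
Implied level in CPM (log axis) of the 14 transporters with an average of at least 2 log2 CPM and an absolute log2 fold change of at least 0.6, for Setd2-KO (red circles) and wild-type NPCs (black squares), computed from the deposited average and fold change with no replicate error. Slc2a1 stands highest with 1221 CPM in Setd2-KO and 642 CPM in wild-type NPCs, and Slc32a1 at the right end has 13.7 CPM in Setd2-KO and 29.2 CPM in wild-type NPCs.

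Promoter letters are printed for 3 carriers that the results turn on, 2 of them carriers of glucose and lactate and 1 the most clearly called glutamate carrier. They are the 250 bases before a RefSeq start site (GRCm38.p6), in lower case, with each match to ACGTG in capitals. ACGTG is a form of the core of hypoxia response elements, and other forms were not sought. Matches were sought on both strands, and a CACGTG palindrome counts as a match on each strand. RefSeq promoters were matched for 57 of the 81 members.
Slc16a3, chr11:120948817-120949066, plus strand: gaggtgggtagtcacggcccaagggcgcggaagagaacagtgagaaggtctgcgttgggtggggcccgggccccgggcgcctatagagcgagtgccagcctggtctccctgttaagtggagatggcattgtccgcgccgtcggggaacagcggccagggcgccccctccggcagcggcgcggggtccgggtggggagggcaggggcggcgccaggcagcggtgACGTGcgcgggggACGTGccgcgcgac
Slc2a1, chr4:119108495-119108744, plus strand: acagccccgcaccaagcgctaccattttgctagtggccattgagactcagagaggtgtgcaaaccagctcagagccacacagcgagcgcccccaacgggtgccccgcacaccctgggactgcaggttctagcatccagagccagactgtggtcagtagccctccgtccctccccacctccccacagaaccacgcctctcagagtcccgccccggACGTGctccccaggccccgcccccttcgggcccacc
Slc1a3, chr15:8710808-8711057, minus strand: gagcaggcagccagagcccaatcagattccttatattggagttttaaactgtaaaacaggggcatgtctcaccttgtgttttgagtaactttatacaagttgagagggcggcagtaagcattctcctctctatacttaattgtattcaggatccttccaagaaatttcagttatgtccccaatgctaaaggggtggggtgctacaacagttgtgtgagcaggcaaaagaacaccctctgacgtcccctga
In Slc16a3, matches began at positions -27 and -14 relative to the start site, in Slc2a1 at -36, and in Slc1a3 there were 0. Over all 32851 RefSeq promoters of this length 16.6% held the motif, as did 18 of the 76 promoters of the matched members (23.7%). Those promoters belong to 16 members, and Slc16a3 was the only called one among them. The called members Slc38a3 and Slc5a2 had no matched promoter. Among members with no call, Slc16a1 held the motif too, as a CACGTG palindrome at -200 and -199, while its log2 fold change was -0.02. Other uncalled members with the motif included Slc1a6 with 1.15, Slc16a12 with 0.87, Slc38a10 with -0.70 and Slc6a5 with -0.65. The motif TGATGNAA, a core of the amino acid response element to which Atf4 binds, was in 3.45% of all promoters and in 3 of the 76 member promoters (3.95%), which belong to Slc7a11 and Slc7a7. A match is a description of the letters and not a binding site.

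Sodium- or proton-coupled amino acid carriers gave 1 call among 18. Slc38a3 encodes SNAT3, a glutamine carrier of astrocytes and liver, and lies on chromosome 9 from 107527815 to 107547018. It rose 2.38-fold (log2 fold change 1.25, edgeR FDR = 0.0038), with an implied 14.5 CPM in Setd2-KO NPCs and 6.07 CPM in wild-type NPCs. Slc6a15, a carrier of branched-chain amino acids and proline, had 1.10 (edgeR FDR = 0.59), with an implied 10.2 CPM in Setd2-KO NPCs and 4.73 CPM in wild-type NPCs. Slc38a4, a carrier of neutral amino acids, had 0.70. The abundant glutamine carriers were close to 0. Slc38a2 (SNAT2) had 0.11 with an implied 372 CPM in Setd2-KO NPCs and 345 CPM in wild-type NPCs, and Slc38a1 (SNAT1) had 0.02 with 258 CPM in Setd2-KO NPCs and 254 CPM in wild-type NPCs.

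Several members of this group had values below 0, none of them called. Slc38a10 had -0.70 with an implied 142 CPM in Setd2-KO NPCs and 230.4 CPM in wild-type NPCs, and Slc38a9, the lysosomal arginine sensor of the mTORC1 pathway, had -0.54. Slc36a1, a proton-coupled lysosomal carrier, had -0.51, and Slc43a2, a carrier of large neutral amino acids, had -0.63. Slc38a7 and Slc38a6 had -0.19 and -0.20. The neutral amino acid exchangers Slc1a4 (ASCT1) and Slc1a5 (ASCT2) had 0.16 and -0.09. Slc43a1, Slc38a5 and Slc36a4 lay between -0.13 and 0.20. The brain proline carrier Slc6a7 had -1.17 at the lowest average of all members, -2.44 log2 CPM, with an edgeR FDR of 1.

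Heteromeric and cationic carriers gave 0 calls among 13 by glmTreat, and 0 of them had an unadjusted p under 0.05. Slc3a2, the heavy chain 4F2hc shared by many light chains, had a log2 fold change of 0.01, with an implied 150 CPM in Setd2-KO NPCs and 149 CPM in wild-type NPCs. Of its light chains, Slc7a5 (LAT1) had 0.38, Slc7a7 0.62, Slc7a6 -0.27 and Slc7a8 (LAT2) -0.37. The cystine-glutamate exchanger Slc7a11 had 0.45 at -0.52 log2 CPM. The arginine carriers were Slc7a1 with 0.17, Slc7a2 with 0.70 and Slc7a3 with 0.31. Slc3a1, the heavy chain known from kidney and gut, had -0.29 and its light chain Slc7a9 had 0.15, while Slc7a4 had 0.84 and Slc7a14 had -0.42. The group's median was 0.17 and 9 of its 13 members had a value above 0.

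Genes of the Atf4 amino acid response, many of which are switched on when amino acids run short, had a median of 0.17 over 28 measured members. Of these, 1 rose and 0 fell. It was Ddit4, an inhibitor of mTORC1 signalling that also answers to hypoxia, with a log2 fold change of 1.15 (edgeR FDR = 0.0061). Of the 28, 22 had a value above 0 and 6 below it. The 3 with the highest average were Aars with 0.16, Sars with -0.77 and Phgdh with 0.01. Atf4 itself had 0.43, Asns 0.54, Trib3 0.92 and Chac1 -0.55, none of them called. The 18 partners of the carriers examined, which power them or take them to the membrane, had a median of -0.01.

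The 4 osmolyte, creatine, sialic acid and nucleobase carriers gave no call. The taurine carrier Slc6a6 had -0.19, the creatine carrier Slc6a8 had -0.25, the lysosomal sialic acid carrier Slc17a5 had 0.03 and the purine carrier Slc43a3 had 0.97 at 1.86 log2 CPM.

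**Figure D4:**
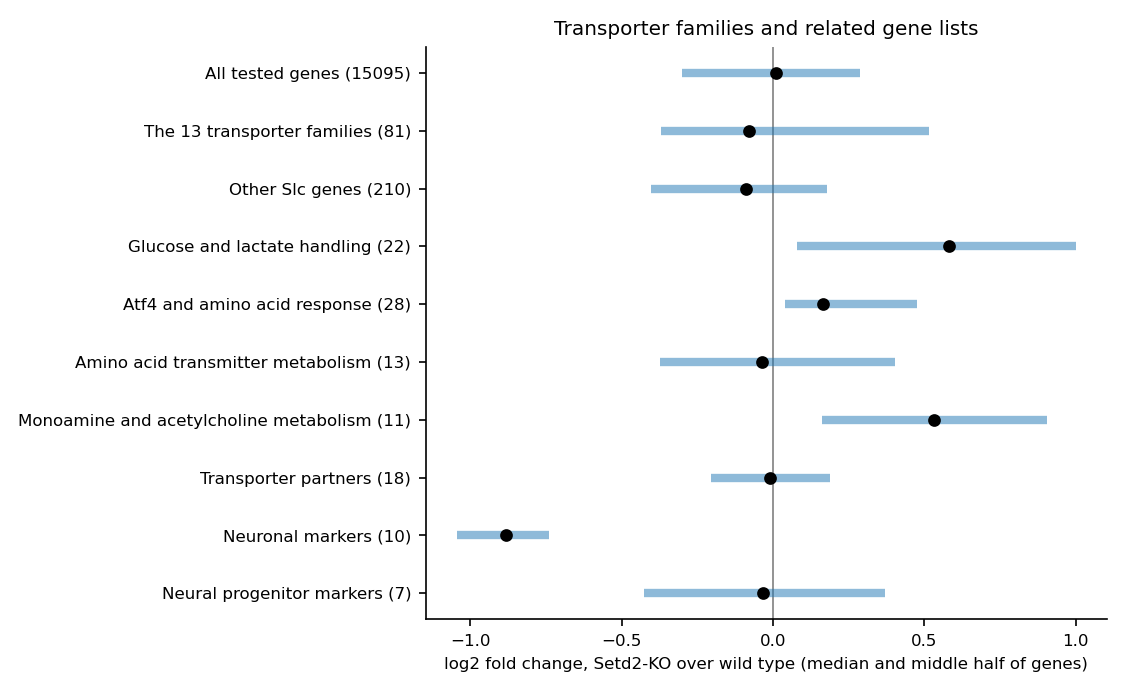
Medians (black points) of the log2 fold change between Setd2-KO and wild type and interquartile range (blue bars) of all tested genes, of the 81 transporter genes, of the other Slc genes and of 7 related gene lists, with the number of measured genes in parentheses. The transporters have a median of -0.08, the glucose and lactate list has 0.58 and the neuronal markers have -0.88.

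Positions were compared next. Within 100 kb of each other lay 5 pairs of members. The closest were Slc16a11 and Slc16a13 on chromosome 11, which overlap on opposite strands and had -0.63 and -0.42. Slc36a2 and Slc36a1 are 19.2 kb apart and had 0.92 and -0.51, so that these neighbours had opposite signs. Neither was called, and Slc36a2 had an average of only -2.13 log2 CPM. The 4 members on chromosome 19 had a median of -0.07, while the median over its 509 genes was -0.37. They were Slc1a1 with -0.41, Slc18a2 with -0.15, Slc3a2 with 0.01 and Slc16a12 with 0.87. The 4 called members lie on 4 different chromosomes. The 41 members whose gene spans at least 34.4 kb had a median of -0.02 with 1 call, and the 40 shorter ones had -0.10 with 3 calls.

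Markers of endoderm, mesoderm and pluripotent cells were examined as well. Of 5 endoderm markers measured, 3 rose, Afp with a log2 fold change of 2.78, Apoa1 with 1.43 and Ttr with 1.33, and the 5 had an implied sum of 98.7 CPM in Setd2-KO NPCs, against 48.6 CPM in wild-type NPCs. Their averages ran from 2.20 to 4.83 log2 CPM. Among 6 mesoderm markers, Hand2 rose with 2.84 and the median was -0.20. Of 6 markers of pluripotent cells 0 passed an FDR of 0.05 by glmTreat and 1, Nanog, had an unadjusted p under 0.05, with a median of 0.08. Slc5a2 and Slc38a3 are also expressed in non-neural tissue, and the part of such cells in their values was not tested.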

How the data were processed

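RNA-seq of 3 Setd2-KO and 3 wild-type NPC libraries was analysed from the table of 15095 genes that the authors deposited. The submitters' notes name Trim Galore, STAR, edgeR and the build NCBIM37 (mm9), whereas the paper's methods name GRCm39, so genes were placed on GRCm39 by Ensembl ID (GENCODE vM39), which matched 15066 genes and all 81 members. The authors' deposited log2 fold changes, average log2 CPM and p-values (edgeR glmTreat, with FDR) were used as given. They are the authors' own comparison, since the table holds 0 columns of values per library. The adjustment was recomputed over all genes and tested on simulated data. The deposited sign runs wild type over Setd2-KO and was turned: of 523 genes shared with the study's directed gene lists, 518 then had the same direction, the 4 called members included. Unshrunken fold changes were not used. Members, functional groups and lists were chosen with earlier results of these data known. Full statistics are given for members past an FDR of 0.05, an unadjusted p of 0.05 or an absolute log2 fold change of 1, and the 3 with the highest average of each group are named, with further members by their values. Of 110 family names, 29 without a row were not analysed here, and the values of a few genes are not reported here. Python 3.11.15 with pandas 2.3.3, numpy 2.4.6, scipy 1.17.1 and matplotlib 3.10.9 was used.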

Additional observations from a re-analysis of the deposited data

How the results depend on the processing

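No paired analysis was possible because the deposited table holds no values per library, and for the same reason no library could be left out. The count of 4 transporters higher in Setd2-KO became 2 under Benjamini-Yekutieli adjustment (Slc1a3 and Slc38a3), 1 under Bonferroni (Slc1a3) and 18 at an absolute log2 fold change of 0.58 with no test. It was 3 at an FDR under 0.01, among genes with an average of at least 0 or at least 2 log2 CPM, and without chromosome 19, and Slc5a2 was then no longer called or not included. The count of 0 transporters lower became 2 at an FDR under 0.10 (Slc17a6 and Slc5a5), 4 at an unadjusted p under 0.05, and 6 and 10 at an absolute log2 fold change of 1 and of 0.58 with no test. The median of all members stayed within 0.1 of -0.08 under each filter on level and without chromosome 19. Group medians moved by over 0.1 in 8 cases, 2 of them for the plasma membrane transmitter carriers, at -0.31 and -0.35. Low averages limit Slc5a2, Slc17a6, Slc6a7 and Slc36a2.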
